A study of Rattus norvegicus with 36 samples.

Results

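The circadian clock genes *Bmal1*, *Clock* and *Npas2*, which encode the activating transcription factors of the clock, and *Cry1* and *Cry2*, which encode the cryptochromes that inhibit them, were examined in rat thyroid samples. Members were chosen by name: all non-control array probes whose transcript accession RefSeq assigns to 1 of the 5 genes were used. The rule itself uses no measured value, but the genes were picked with earlier results of these data known. There were 8 such probes among the 30367 analysed, and the 5 genes were among 15154 that could be named. *Bmal1*, *Clock* and *Npas2* had 2 probes each, *Cry1* and *Cry2* 1 each, and both probes of a gene carried the same accession. On the rat build GRCr8 the genes span chr1:176766222-176864741 (*Bmal1*), chr14:32262747-32346872 (*Clock*), chr9:48959225-49138036 (*Npas2*), chr7:20417526-20481791 (*Cry1*) and chr3:98830479-98860437 (*Cry2*).

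RNA was measured on 1-color microarrays in 36 adult male Sprague Dawley rats, an outbred strain, in 9 groups of 4. Of these, 8 groups received the radionuclide 131I into a tail vein, at activities of 9, 88, 170 and 260 kBq and of 340, 760, 1300 and 4700 kBq, and the control group was mock-treated; all rats were killed after 24 h. The groups were injected in order of increasing activity, and the controls were treated last. The paper places the experiment in day-time, with the lights on, and states that each cage held 4 rats. It does not say whether a cage held 1 group. The clock times were not given in the sources used here, so each group has a place from 1 (9 kBq) to 9 (controls) and no hour. Among the 8 irradiated groups, place and activity run together and cannot be told apart: they differ only in where the controls stand, beside the 4700 kBq group by place and below the 9 kBq group by activity. Each array held the thyroid sample of 1 rat.

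In nearly every mammalian cell the clock is a loop of transcription. BMAL1 pairs with CLOCK, or with its relative NPAS2, and binds E-box sequences in the genes of the period (*Per*) and cryptochrome proteins, of REV-ERB (*Nr1d1*, *Nr1d2*) and of *Dbp*; the PER and CRY proteins then return to block the pair. REV-ERB shuts off *Bmal1* through elements that the ROR receptors use to turn it on, and so *Bmal1* RNA peaks at about the opposite time of day from *Dbp*, *Nr1d1* and *Per* RNA, while *Cry1* peaks later than the other E-box genes. Thyroid, like other peripheral tissues, has such a clock.

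The labelled tissue was checked against 12 marker genes of thyroid follicle cells, and the samples fell into 2 sets. Levels here and throughout are log2 of the signal minus the array's 75th percentile, so 0 is the level that 75% of an array's probes lie below. The mean level of the follicle genes lay between 0.86 and 2.37 on 18 arrays and between -5.47 and -1.03 on the other 18. The median level of *Tg*, which encodes the thyroid hormone precursor thyroglobulin, was 7.01 in the first set and 0.06 in the second. The sodium iodide symporter gene *Slc5a5* was well above background on all 18 arrays of the first set and on 8 of the second, and *Slc26a4*, pendrin, on 0 of either. The set with a follicle mean above 0 held 1 rat of the 9 kBq group, 1 of the 340 kBq group, 2 each of the 88, 170, 260, 760 and 1300 kBq groups, and 3 each of the 4700 kBq group and the controls. Fast muscle genes had a mean above 0 on 35 of 36 arrays (median 6.57, range -3.79 to 7.36), slow muscle genes on 28, parathyroid genes on 15 and squamous epithelium genes on 13. Marker levels therefore varied by rat, and the 2 sets were spread unevenly over the groups. In whole tissue, fewer cells of a type and less RNA per cell cannot be told apart. The results below were also computed within each of the 2 sets, a step chosen after the data were seen; no rat is given a different group for it.

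The control regions known for this loop are shown first, since the members differ in them. RefSeq windows of 250 bases before the annotated start, build GRCr8, were at hand for 4 of the 5 members (5 windows, as *Clock* has 2 starts). They were searched on both strands for the ROR element GTAGGTNA (N is any base; letters chosen to cover the known *Bmal1* elements), the E-box CACGTG, its variant CACGTT and the D-box TTANGTAA, to which DBP, TEF and NFIL3 bind. Capitals mark the match. In *Bmal1* the ROR element, through which REV-ERB also acts, was present 2 times on the gene's strand, at 53 to 46 and at 17 to 10 bases before the start (chr1:176766264-176766293 and chr1:176766298-176766327, + strand). This window begins before the annotated span of the gene and ends inside it, as another transcript starts earlier.
Bmal1, distal: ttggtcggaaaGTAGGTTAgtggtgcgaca
Bmal1, proximal: gggaaggcagaaaGTAGGTCAgggacggag
Of 33360 distinct windows of this length, 1.69% held the element. *Cry2* had a variant E-box 212 bases before its start, read on the opposite strand of the motif (chr3:98860632-98860661, - strand).
Cry2: acacatggtgggAACGTGagggggcggggc
The variant was present in 4.07% of windows, the E-box in 5.61% and the D-box in 2.05%. The windows of *Clock* and *Npas2* held none of the 4 motifs, which says only that these letters are not in these windows. 3 genes on the other side of the loop are shown as examples of windows with a match, and do not stand for all clock genes. They are *Nr1d1* with an E-box (chr10:84229628-84229657, - strand), *Per2* with a variant E-box (chr9:99497038-99497067, - strand) and *Tef* with an E-box (chr7:115206617-115206646, + strand). *Nr1d1* also had a variant E-box and *Per2* a D-box, which are not shown.
Nr1d1: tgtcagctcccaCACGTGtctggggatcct
Per2: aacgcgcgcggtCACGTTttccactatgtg
Tef: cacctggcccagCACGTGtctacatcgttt
Each match is a match of letters, not a measured binding site.

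*Bmal1*, the partner shared by both activating complexes, was high in the 5 groups injected first, intermediate in the 760 and 1300 kBq groups, and low in the 4700 kBq group and in the controls. With the brighter probe (A_44_P214873), the 4 rats had levels of 0.69, 0.38, 0.21 and 0.53 at 9 kBq. At 88 kBq they had 0.88, 0.66, 0.08 and 0.03. At 170 kBq they had 0.20, -0.32, 0.90 and 0.30. Most rats of these 3 groups lay above the 75th percentile of their arrays, and 1 lay below. At 260 kBq the levels were 0.17, -0.08, 0.23 and 0.37, and at 340 kBq 0.54, 0.17, 0.47 and -0.21. At 760 kBq they were -0.74, -0.08, -1.03 and -0.88, and at 1300 kBq -0.76, -0.65, -0.90 and -0.43. All 8 rats at 760 and 1300 kBq were below the 75th percentile, and 1 of them, at 760 kBq, reached the range of the earlier groups. At 4700 kBq the levels were -1.34, -2.06, -1.24 and -2.67, and in the controls, which received no activity, -1.54, -0.88, -2.40 and -1.24. The group with the highest activity and the group with none, which were treated next to each other, overlapped. The group means (SD, n = 4) were 0.46 ± 0.21, 0.41 ± 0.42, 0.27 ± 0.50, 0.17 ± 0.19 and 0.24 ± 0.35 from 9 to 340 kBq. They were -0.68 ± 0.42, -0.68 ± 0.20 and -1.83 ± 0.67 at 760, 1300 and 4700 kBq, and -1.52 ± 0.65 in controls.

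**Figure D1:**
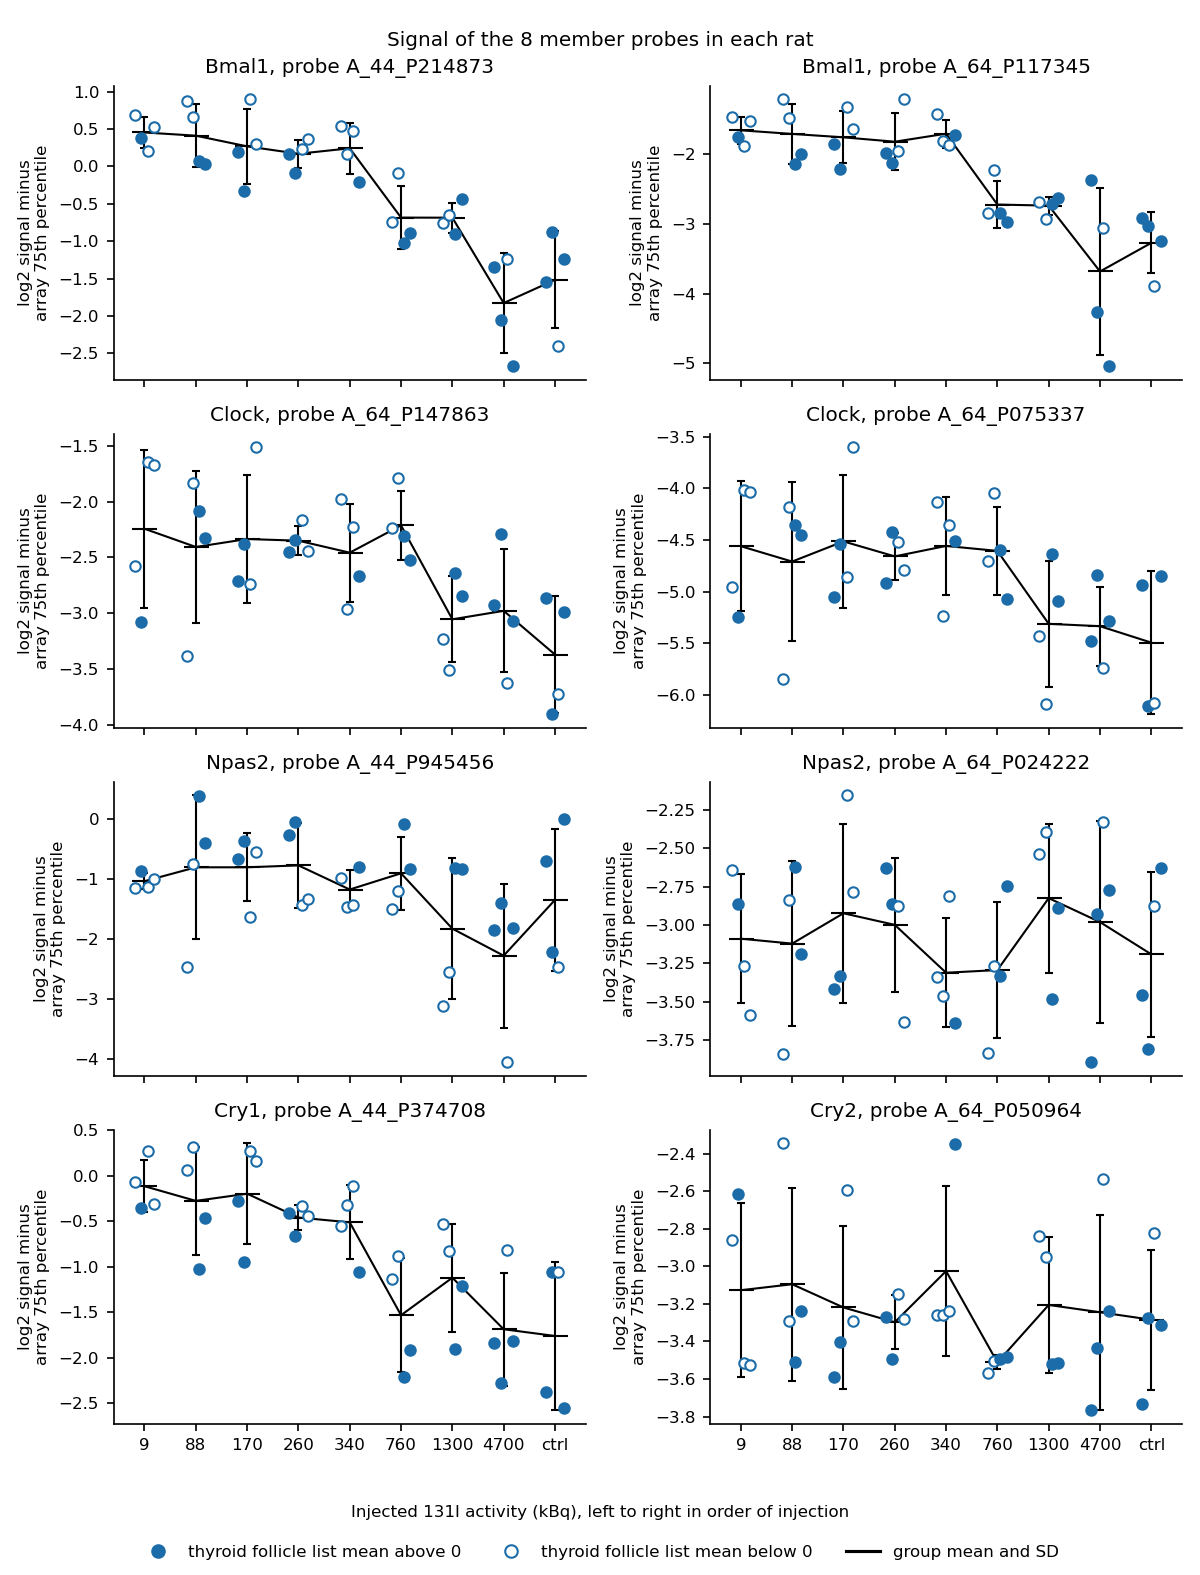
Levels of the 8 probes of *Bmal1*, *Clock*, *Npas2*, *Cry1* and *Cry2* (log2 signal minus the array's 75th percentile, 1 panel per probe) in the 9 groups in order of injection, controls last. Each circle is a rat, filled where the mean of the thyroid follicle genes was above 0 and open where it was below, and black marks give the group mean and SD (n = 4); *Bmal1* stands at 0.46 at 9 kBq, -1.83 at 4700 kBq and -1.52 in controls, while *Cry2* has group means between -3.51 and -3.02.

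Against the controls, the log2 ratio of *Bmal1* was 1.97 (SE 0.31, 3.92-fold) at 9 kBq, 1.93 (3.81-fold) at 88 kBq, 1.79 (3.45-fold) at 170 kBq, 1.69 (3.22-fold) at 260 kBq and 1.76 (3.39-fold) at 340 kBq. In each of these 5 comparisons all 4 irradiated rats were above all 4 controls, which gave an exact permutation p of 0.0286, two-sided, the smallest that 4 against 4 allow. Such separation upward was found in 1.49% of all probes at 9 kBq, 1.69% at 88 kBq, 1.03% at 170 kBq, 0.804% at 260 kBq and 4.08% at 340 kBq. The limma fit over all probes gave adjusted p of 0.0143, 0.0151, 0.0370, 0.0666 and 0.0577 for the 5 groups, and *Bmal1* ranked 1, 2, 3, 4 and 2 among the 30367 probes. The study's limits, a fold change of 1.5 or more with an adjusted p below 0.01, were therefore not met in any of them, and 0 of 30367 probes met them in any of the 8 comparisons. With quantile normalization the limma adjusted p of *Bmal1* was 0.00397 at 9 kBq and 0.00645 at 88 kBq, which passed. The share of all probes that passed in that setting is not given here. With a limit of 0.05 on the adjusted p, the 9, 88 and 170 kBq groups passed in the main setting, where 0.00659%, 0.00329% and 0.00329% of all probes did so upward, and no other member probe did. The median ratio of all probes was 0.12 at 170 kBq, 0.31 at 340 kBq and 0.22 at 1300 kBq, and the ratios at those activities stand above that shift. At 760 and 1300 kBq the log2 ratio was 0.83 in both groups (1.78-fold, limma adjusted p 0.9999 and 0.835), and at 4700 kBq it was -0.31 (limma adjusted p 0.9999, rank 6265), or 1.17 in the samples with follicle genes below 0, with 1 array in each group. The 8 comparisons share the same 4 controls and are not independent of each other.

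The difference between the first and the last irradiated group uses no control. *Bmal1* was 4.86-fold higher at 9 kBq than at 4700 kBq (log2 ratio 2.28, 95% confidence interval 1.64 to 2.93, limma adjusted p = 0.00152), higher in all 4 rats than in any of the other group. It passed both limits, and it was the single probe called higher of 30367 (0.00329%), with the smallest p of all. The whole comparison called 5 probes, 0.0165%, and separation of all 4 rats upward was found in 2.36%. Several marker lists moved with this comparison. The mean of the thyroid follicle genes was -3.29 ± 3.04 (SD, n = 4) at 9 kBq and 0.47 ± 2.63 at 4700 kBq, and that of the parathyroid genes -4.73 ± 4.78 and 1.24 ± 2.87. The squamous epithelium genes had 1.28 ± 5.60 and -4.43 ± 1.01, the cartilage genes -1.73 ± 0.80 and -5.73 ± 0.74, and the erythroid genes 1.54 ± 0.65 and 3.03 ± 1.12. The ranges of the cartilage and erythroid lists did not overlap between the groups, and the part of these 2 lists in the *Bmal1* difference was not tested. Within the samples whose follicle mean was above 0 the *Bmal1* difference was 2.40 (limma adjusted p 0.0392, 1 array at 9 kBq and 3 at 4700 kBq), and within the samples with a mean below 0 it was 1.72 (adjusted p 0.0966, 3 arrays and 1). Neither reached 0.01, and since each has a single rat on one side, neither shows whether the difference holds within a tissue set. With the list means of thyroid follicle, parathyroid, squamous epithelium and slow muscle as covariates it was 2.14 (adjusted p 0.00453). Without rat 4 of the 9 kBq group the difference was 2.25 and its adjusted p 0.0111. In a limma fit of these 2 groups alone the difference was 2.28 and its adjusted p 0.171.

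Across the 5 groups injected first and the 4 treated last, *Bmal1* levels did not overlap within either tissue set. In the samples with follicle genes above 0, the 8 rats of the first 5 groups had levels from -0.32 to 0.38 and the 10 of the last 4 groups from -2.67 to -0.43. In the samples with follicle genes below 0, the 12 rats of the first 5 groups had 0.17 to 0.90 and the 6 of the last 4 groups -2.40 to -0.08. This division of the groups was made after their values were seen, so it carries no test. The share of all probes that separate in this way is not given here, so the separation has no background beside it. The part of the tissue lists in it was not tested. Ordered by mean, neighboring groups from 9 to 260 kBq did not differ beyond their spread (exact permutation p 0.714 to 0.943 for differences of 0.03 to 0.14). The steps were between 260 and 760 kBq, with a difference of 0.85, and between 1300 kBq and controls, with 0.83, each with an exact p of 0.0571.

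The second *Bmal1* probe (A_64_P117345) gave the same course at a lower signal. Its group means were -1.67, -1.72, -1.77, -1.83 and -1.71 from 9 to 340 kBq, -2.73 and -2.74 at 760 and 1300 kBq, -3.68 at 4700 kBq and -3.28 in controls. All 4 rats of each of the first 5 groups were above all controls, the highest of which was at -2.91. The ratios to controls were between 1.45 and 1.61 on the log2 scale in these groups (SE 0.36), with no limma adjusted p below 0.147. Between 9 and 4700 kBq the difference was 2.02 (adjusted p 0.0171), and so it did not pass the limit that the first probe passed. At a limit of 0.05 both *Bmal1* probes were called, and they were the 2 probes of 30367 called higher (0.00659%). The spread at 4700 kBq was wide, from -5.04 to -2.37. Both probes followed each other over the 36 arrays (r = 0.95) and, with group means subtracted, among rats of the same group (r = 0.81).

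*Clock* encodes the constant partner of BMAL1 and was measured by 2 probes; in most tissues its RNA oscillates little. With the brighter probe (A_64_P147863), the 9 kBq rats had levels of -2.57, -3.08, -1.65 and -1.67. The 760 kBq rats had -2.24, -1.79, -2.31 and -2.52, and the 1300 kBq rats -3.23, -3.51, -2.64 and -2.84. At 4700 kBq the levels were -2.93, -2.29, -3.63 and -3.07, and in controls -2.86, -3.91, -3.73 and -2.99. The first 6 groups had means between -2.46 and -2.21, and the last 3 -3.06, -2.98 and -3.37, so the lower levels began 1 group later than those of *Bmal1*. Against controls the log2 ratio was 0.91 to 1.16 in the first 6 groups (SE 0.36) and 0.32 and 0.39 at 1300 and 4700 kBq, with no limma adjusted p below 0.268. All 4 rats were above all controls at 170, 260 and 760 kBq (exact permutation p 0.0286 each), where 1.03%, 0.804% and 1.39% of all probes were. Between 9 and 4700 kBq the difference was 0.74 (adjusted p 0.608) over all arrays, -0.32 in the samples with follicle genes above 0 and 1.66 in those below 0. Each of these within-set values has a single array on one side, and so does not show where the direction comes from. Among rats of the same group *Clock* had, over all 36 and as a description, an r of 0.60 with the squamous epithelium list. It had -0.65 with the lymphoid list and -0.01 with the follicle list. Within the samples with follicle genes above 0, r with the follicle list was 0.87, and within those below 0 it was -0.35. The adjusted permutation p was 0.0630 and 0.545, computed as for the relations among rats below. The part of these lists in the levels of *Clock* was not tested.

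The second *Clock* probe (A_64_P075337) was dimmer, well above background on 35 of 36 arrays and in 3 of the 4 controls. Its means were -4.71 to -4.51 in the first 6 groups, -5.31 at 1300 kBq, -5.34 at 4700 kBq and -5.49 in controls. It followed the first probe closely (r = 0.96 over the 36 arrays, 0.95 within groups). The 9 kBq group exceeded the 4700 kBq group by 0.77 (limma adjusted p 0.623), and by -0.04 in the samples with follicle genes above 0.

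*Npas2*, which can stand in for *Clock*, varied among rats more than between groups. With the brighter probe (A_44_P945456), the 9 kBq rats had levels of -1.16, -0.87, -1.13 and -0.99, close to each other. The 88 kBq rats had -2.46, -0.75, 0.38 and -0.39, which spanned the whole range of the groups up to 760 kBq. At 4700 kBq the levels were -1.84, -1.40, -4.05 and -1.81, and in controls -0.71, -2.21, -2.47 and -0.00. Group means lay between -1.17 and -0.77 up to 760 kBq and were -1.83 at 1300 kBq, -2.28 at 4700 kBq and -1.35 in controls. The log2 ratios to controls were between -0.93 and 0.57 (SE 0.61), each within 2 standard errors of 0. All rats at 9 kBq were above all at 4700 kBq (difference 1.24, exact permutation p 0.0286), while the limma adjusted p was 0.608. Within the samples with follicle genes above and below 0 that difference was 0.82 and 2.96, each with a single array on one side.

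The other *Npas2* probe (A_64_P024222) did not follow the first. Its group means ran from -3.31 to -2.82 with no order, the 9 and 4700 kBq groups differed by -0.11 (95% confidence interval -0.84 to 0.62, limma adjusted p 0.958), and its correlation with the first probe was -0.09 over the 36 arrays and -0.04 within groups. Both probes carry the accession NM_001108214, and both were well above background on all 36 arrays. Statements on *Npas2* therefore hold for a probe, not for the gene.

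*Cry1*, the cryptochrome with the later phase, resembled *Bmal1* in its group means. The 9 kBq rats had levels of -0.07, -0.36, 0.28 and -0.30, the 88 kBq rats 0.07, 0.31, -1.02 and -0.46, and the 170 kBq rats -0.28, -0.95, 0.28 and 0.17. At 260 kBq they were -0.41, -0.66, -0.33 and -0.44, and at 340 kBq -0.55, -0.33, -0.11 and -1.06. All rats of these 5 groups except 1 lay above the highest control. At 760 kBq the levels were -1.14, -0.88, -2.21 and -1.91, and at 1300 kBq -0.53, -0.83, -1.91 and -1.21. At 4700 kBq they were -1.84, -2.28, -0.81 and -1.82, and in controls -2.37, -1.05, -1.06 and -2.55. These last 4 groups overlapped each other. The group means were -0.11, -0.27, -0.20, -0.46 and -0.51 from 9 to 340 kBq, -1.53, -1.12 and -1.69 from 760 to 4700 kBq and -1.76 in controls.

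Against controls *Cry1* gave log2 ratios of 1.65 (3.13-fold), 1.49, 1.56, 1.30 and 1.25 from 9 to 340 kBq (SE 0.39), and 0.23, 0.64 and 0.07 at 760, 1300 and 4700 kBq. The first 4 groups were above all controls in all 4 rats (exact permutation p 0.0286 each; 0.0571 at 340 kBq). None of these ratios passed the limma limits. The limma adjusted p was 0.511, 0.99997, 0.916, 0.99999 and 0.206 at 9, 88, 170, 260 and 340 kBq. In the first 4 of these comparisons the probe ranked between 12 and 18 of 30367. Between 9 and 4700 kBq *Cry1* differed by 1.57 (2.97-fold, all 4 rats above, adjusted p 0.373, rank 27), by 1.62 in the samples with follicle genes above 0 and by 0.78 in those below, again with a single array on one side. At 1300 and 4700 kBq no probe of the 5 genes was above all controls in all 4 rats, where 1.1% and 0.718% of all probes were, and at 4700 kBq 0.0198% of probes were called higher at an adjusted p under 0.05 and none of the 8 was. No neighboring pair of *Cry1* groups differed beyond its spread, the largest step being 0.61 between 340 and 1300 kBq (exact p 0.171).

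*Cry2*, the second cryptochrome, showed no difference beyond its spread. Its lowest and highest group means were -3.51 at 760 kBq and -3.02 at 340 kBq, with controls at -3.28. The 9 kBq rats had levels of -2.86, -2.61, -3.51 and -3.52, the 4700 kBq rats -3.77, -3.44, -2.53 and -3.24, and the controls -3.73, -3.27, -2.82 and -3.31, all within one range. The 9 and 4700 kBq groups differed by 0.12 (95% confidence interval -0.48 to 0.71, limma adjusted p 0.942).

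**Figure D2:**
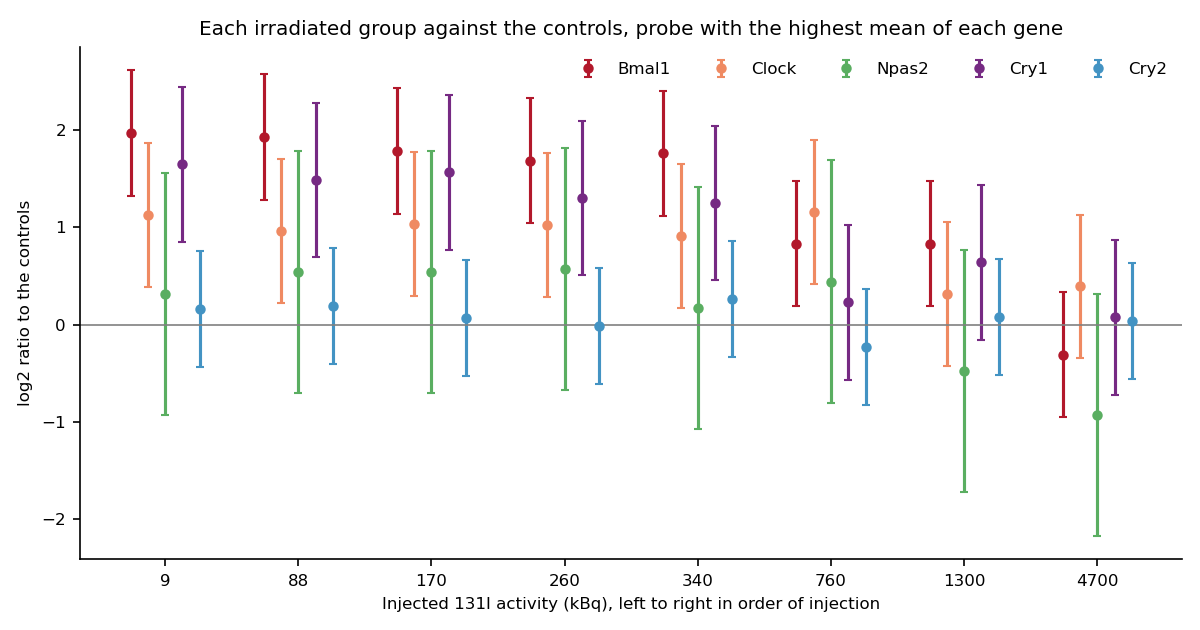
Log2 ratio to the 4 controls of the brighter probe of each member at the 8 injected activities (x axis, in kBq and in order of injection), with 95% confidence intervals from the limma fit over 36 arrays. *Bmal1* lies at 1.69 to 1.97 up to 340 kBq, 0.83 at 760 and 1300 kBq and -0.31 at 4700 kBq, *Cry1* at 1.25 to 1.65 up to 340 kBq, and the points of 1 gene share their controls.

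To set place in the injection order against activity, each probe's 9 group means were fitted on the place from 1 to 9. *Bmal1* had a slope of -0.29 log2 units per place (SE 0.04), *Cry1* of -0.23 (SE 0.03) and the second *Bmal1* probe of -0.25. The slopes were -0.13 and -0.12 for *Clock*, -0.13 for the brighter *Npas2* probe, -0.02 for *Cry2* and -0.00 for the dimmer *Npas2* probe. Adjusted over all probes, none of the 8 passed 0.05: the limma adjusted p was 0.228 for *Cry1* (rank 8), 0.297 and 0.341 for *Bmal1* (ranks 10 and 23), 0.423 for both probes of *Clock*, 0.436 and 0.991 for *Npas2* and 0.806 for *Cry2*. Over all probes 4 passed, 0.0132%. At an unadjusted p under 0.05, 6 of the 8 probes had a negative slope, against 6.12% of all 30367.

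The order of the group means was close to the order of injection in *Bmal1* and *Cry1*. With the 9 groups in order, Pearson's r was -0.92 and Spearman's rho -0.97 for *Bmal1* (exact permutation p 0.000314 and 0.000165) and -0.93 and -0.97 for *Cry1* (exact permutation p 0.000375 and 0.000165). With the same groups ordered by activity, controls first, r was -0.36 (exact permutation p 0.333) for *Bmal1* and -0.38 (exact permutation p 0.308) for *Cry1*. The 2 orders differ in the controls alone, which stood beside the 4700 kBq group in both genes. Without the groups at places 1 and 9, r with place was -0.90 in both. Without the 2 groups at the ends of the activity order, controls and 4700 kBq, r with activity rank was -0.88 for *Bmal1* and -0.85 for *Cry1*. For the second *Bmal1* probe r and rho were -0.89 and -0.88, for the brighter *Clock* probe -0.82 and -0.68 (exact permutation p 0.0070 and 0.0503) and for the brighter *Npas2* probe -0.69 and -0.68 (exact permutation p 0.0393 and 0.0503). *Cry2* had an r of -0.41 (exact permutation p 0.279). Each of the 8 probes was set against 4 predictors, place and activity over 9 groups and over the 8 irradiated groups. Over the 8 irradiated groups alone, where the orders coincide, r with place was -0.88 for *Bmal1* and -0.91 for *Cry1*.

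The slopes were also taken within tissue sets and batches. In samples with follicle genes above and below 0, the slope of *Bmal1* was -0.25 and -0.35 per place, that of *Cry1* -0.23 and -0.16, that of *Clock* -0.05 and -0.20, and that of the brighter *Npas2* probe -0.11 and -0.27. None of these passed 0.05 after adjustment over all probes, the smallest limma adjusted p being 0.0528. The arrays lay on 5 slides of 6 to 8 arrays with 4 to 6 groups each, scanned on 2 days. Within a slide the *Bmal1* slope was between -0.36 and -0.16 and that of *Cry1* between -0.29 and -0.16. On slide 4 the slope of *Clock* was 0.20 and that of the brighter *Npas2* probe 0.07, opposite to the other slides. Within the scan days *Bmal1* differed between 9 and 4700 kBq by 2.25 and 2.31.

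**Figure D3:**
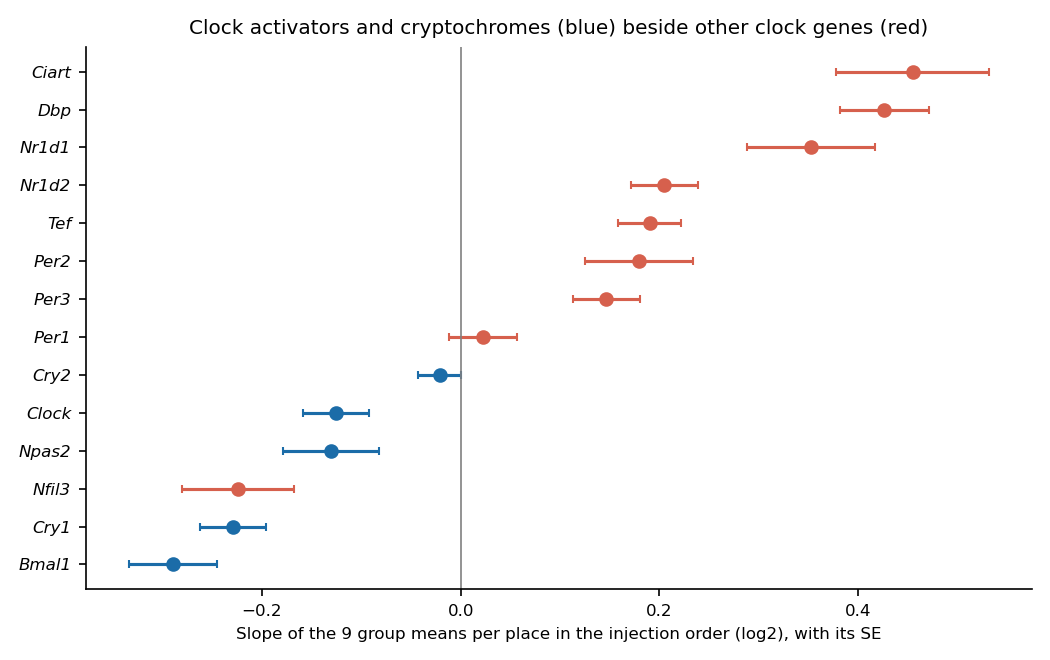
Slope of the 9 group means per place in the injection order (log2 units, with standard error from the limma fit). Blue marks the brighter probe of each member, and red marks clock repressors and PAR bZIP genes. The dimmer probes of *Bmal1*, *Clock* and *Npas2* are not drawn, so the *Npas2* point holds for its brighter probe alone. *Bmal1* (-0.29) and *Cry1* (-0.23) lie at the negative end with *Nfil3* (-0.22), and *Dbp* (0.43), *Ciart* (0.45) and *Nr1d1* (0.35) at the positive end.

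Among the other clock genes 1 passed the order test, with a slope of the other sign. *Dbp*, an activator of D-box genes and a direct target of BMAL1 and CLOCK, rose by 0.43 per place (SE 0.04, limma adjusted p 0.0462), 1 of the 4 probes that passed. Its level was 2.08 at 9 kBq, 5.10 at 4700 kBq and 4.77 in controls, a log2 difference of -3.02 between 9 and 4700 kBq (limma adjusted p 0.00569). Its relative *Tef* had a slope of 0.19 (adjusted p 0.341), and *Nfil3*, the repressor of D-box genes, one of -0.22 (adjusted p 0.423), the sign of *Bmal1*. In the list of *Dbp*, *Tef*, *Hlf* and *Nfil3*, of which 3 had a probe, 1 passed. Of the 8 clock repressors listed 7 had a probe and 0 passed, while 6 of the 7 had positive slopes at an unadjusted p under 0.05, against 3.89% of all probes. The REV-ERB genes *Nr1d1* and *Nr1d2* had slopes of 0.35 and 0.21 (limma adjusted p 0.359 and 0.341), *Per2* and *Per3* of 0.18 and 0.15 (0.423 both), and *Ciart*, an inhibitor of the BMAL1-CLOCK pair that was well above background on 12 arrays, of 0.45 (0.341). *Per1*, which also responds quickly to stress signals, had a slope of 0.02 (0.875). The median slopes were 0.18 in the repressors and -0.13 in the 5 members, beside -0.00 over all probes.

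The remaining lists were mixed. Of 9 measured clock kinases, ubiquitin ligases and cofactors 0 passed, with 1 negative and 1 positive slope at an unadjusted p under 0.05 and a median of -0.00. Of 11 measured bHLH-PAS genes outside the core clock, relatives of the activators by protein family, 0 passed, 2 had negative slopes at that p, and the median was -0.07. The ROR receptors had no probe that could be named. Thyroid follicle genes had 5 of 12 positive slopes at an unadjusted p under 0.05, a median of 0.32 and 0 that passed. Their part in the slopes of the members was not tested beyond the values within the tissue sets above.

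Among rats of the same group, which share activity and place, the members varied with the follicle genes and with each other. Since the samples form 2 sets by follicle genes, relations were computed within each set after the means of each group in the set were subtracted (16 rats in each set, as groups with a single rat in a set drop out; 30 relations, permutation within groups, Benjamini-Hochberg over the 30). Each member with 2 probes was represented by its brighter one, so values of *Npas2* hold for that probe. In the samples with follicle genes above 0, the brighter *Npas2* probe followed the follicle mean with r = 0.94 and rho = 0.92 (adjusted permutation p 0.0260 for r and 0.0387 for rho). *Cry1* opposed the follicle mean with r = -0.91 and rho = -0.80 (adjusted permutation p 0.0271 for r and 0.0631 for rho, which did not pass 0.05). *Cry1* and the brighter *Npas2* probe opposed each other with r = -0.89 and rho = -0.80 (adjusted permutation p 0.0260 and 0.0394). *Clock* and *Cry1* opposed each other with r = -0.90 and rho = -0.87 (adjusted permutation p 0.0260 and 0.0387). Without the 2 rats farthest from the median of the first-named gene, these 4 values of r were 0.86, -0.80, -0.76 and -0.88. In the samples with follicle genes below 0 the same 4 relations had r of -0.42, -0.36, -0.04 and 0.19, and 0 of 15 relations passed 0.05 after adjustment. *Bmal1* had no relation that passed in either set: with the follicle mean r was -0.48 and -0.35 (adjusted permutation p 0.358 and 0.832), and with *Cry1* 0.48 and -0.11 (0.254 and 0.833). The planned form took 15 relations over all 36 rats with group means alone subtracted, which mixes the 2 sets. There *Bmal1* had r = -0.39 and rho = -0.47 with the follicle mean (adjusted permutation p 0.0636 and 0.0182). With *Cry1* it had 0.43 and 0.47 (0.0812 and 0.0407), and with *Clock* r was -0.08 (0.746). *Cry2* had r = -0.68 with *Clock* and -0.63 with *Npas2* (0.00247 and 0.00273). Whether the relations differ between the sets was not tested.

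**Figure D4:**
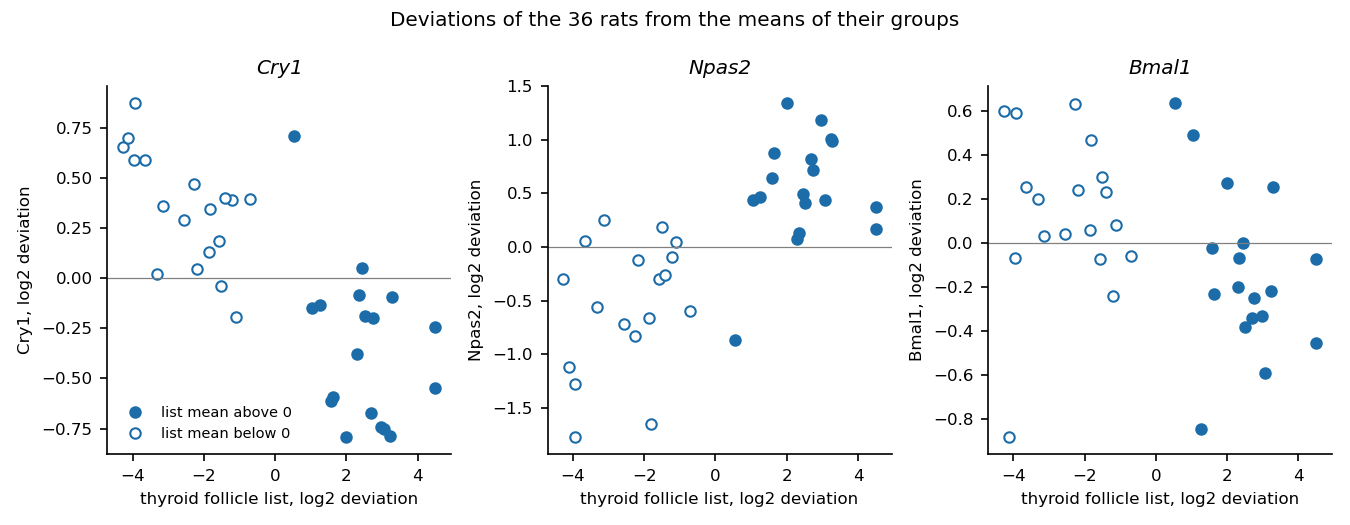
Deviation of each of the 36 rats from its group mean (log2 units) for *Cry1* and the brighter probes of *Npas2* and *Bmal1*. The x axis gives the same deviation of the mean of the thyroid follicle genes, filled where that mean is above 0 and open where it is below. The rats form 2 sets along the x axis; the filled rats tend to lie low in *Cry1* and high in *Npas2*, and *Bmal1* shows the smallest shift of the 3.

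Within each of the 9 groups the rats with follicle genes above 0 had on average the lower *Cry1* level, by 0.15 to 1.17, and the higher level of the brighter *Npas2* probe, by 0.22 to 2.36. *Bmal1* was lower in them in 7 of the 9 groups and *Clock* in 5. The sets were drawn from measured genes of the same arrays, so these values are a description with no test. They stand beside the group differences of *Cry1* and *Npas2*, as the groups hold unequal numbers of such rats.

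The genes whose levels over the 36 arrays were most like those of a member were found among 10342 named genes well above background on at least 30 arrays. The correlations are descriptive, since the arrays share the tissue sets and the groups. *Bmal1* was most like *Rtp3* (r = 0.79), *Rnf144a* and *Wsb1* (0.67 both), *Nfil3* (0.66) and *Thrap3* (0.62), and most opposed to *Fam76a* (-0.79), *Dbp* (-0.78) and *Per2* (-0.77). *Cry1* was most like *Nfil3* (0.78), *Pds5a* and *Stk38l* (0.76 both), *Lims1* (0.76) and *Rap2c* (0.73), and most opposed to *Ace* (-0.79), *Nkd2* (-0.78) and *Bpnt1* (-0.74). *Nfil3* was thus among the 5 nearest genes of both. The neighbors of the other members held no gene of the clock lists: those of *Clock* were led by *Ctnnd1* (0.88), which encodes catenin delta, those of *Npas2* by *Sphk2* (0.89), a sphingosine kinase, and those of *Cry2* by *Nudt17* (0.83). The strongest opposed genes were *Dnmt3a* (-0.78) for *Clock*, *Rb1* (-0.87) for *Npas2* and *Shroom3* (-0.74) for *Cry2*. Beyond the listed genes, *Tef* (-0.84) ranked 10338 of 10342 for *Npas2*, and *Dbp* (-0.73) ranked 10325 for *Clock*. Other clock genes lay far from the ends, such as *Nfil3* (0.08) for *Clock* and *Per2* (-0.11) for *Npas2*.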

How the data were processed

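Total RNA of individual fresh-frozen samples was labeled with Cy3. The deposited files hold spot intensity from Agilent Feature Extraction 10.7.3.1, background-corrected by that software. The authors' own value table was made with Partek, per the labels, and was used as an alternative. Here log2 of the processed intensity minus each array's 75th percentile (1594 to 4298 linear units) was averaged over the spots of a probe, without control spots and outlier spots (331 to 1365 per array). Between 60.1% and 88.5% of probes per array were well above background (median 70.0%), and 0 spots were saturated. The number of arrays limits the precision. Accessions were matched to RefSeq gene tables (GRCr8), which named 17998 of 30367 probes.

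Groups came from the labels. One limma 3.58.1 fit (R 4.3.3) with 9 group means over 36 arrays served the 8 comparisons with controls and the 9 against 4700 kBq comparison, with Benjamini-Hochberg adjustment in each over all probes and limits of 0.01 and 1.5-fold. The injection order was fitted in limma over the 9 group means, with a limit of 0.05. After outlier removal 99 probes lacked a value on some array; no member did. Single probes were tested by exact permutation, and relations among rats by 100000 permutations within groups (Python 3.11.15, scipy 1.17.1). The rule for named genes was all member probes, the listed clock genes, and per member the 5 genes most alike and the 3 most opposed; the probe with the highest mean stands for a gene. In simulated data with changes of 4 standard deviations in 50 probes of 30268, 76% were called in the comparison of 9 kBq with controls and 80% in the order fit; at 2 standard deviations 2% and 8% were. The members and lists were chosen with earlier results of these data known. Alternatives were another normalization, background correction, filters, weights, blocks for slide and replicate number, covariates, thresholds and each rat left out, and, chosen after the data were seen, the tissue sets. The files hold no mean signal beside the background, so normexp was run on median signals.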

Additional observations from a re-analysis of the deposited data

Results flagged for a closer look

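Of 72 groups of 4 rats (8 probes, 9 groups), 3 held a rat far from the other 3 by Dixon's ratio; chance gives about 1 in 20, or 5%. The second *Clock* probe (A_64_P075337) was at -5.85 in rat 1 of the 88 kBq group, with the nearest rat at -4.45 and a gap of 0.839 of the range. *Cry2* was at -2.34 in rat 4 of the 340 kBq group, with the nearest at -3.24. The brighter *Npas2* probe (A_44_P945456) was at -4.05 in rat 3 of the 4700 kBq group, with the nearest at -1.84 and a gap of 0.833 of the range.

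The change of *Bmal1* (A_44_P214873) against controls differed between the 9 and the 4700 kBq group by 2.28 log2 units (limma adjusted p 0.00152 for the difference itself). The controls cancel in this difference.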

How the results depend on the processing

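Over 56 results and 2752 alternatives, 2670 kept direction and side of the threshold, 26 passed it newly, 4 no longer passed and 52 turned direction; where a cause is not named below, it was not tested. The samples with follicle genes below 0 hold 1 control array, against which the log2 ratio of *Bmal1* was 2.88 at 9 kBq and 3.17 at 88 kBq. Calls that rest on this single control are left out of the next count. The number of member calls against controls was 0, and 2 with quantile normalization, normexp, the authors' value table or a filter on dim probes. With array weights it was 3, and at an adjusted p under 0.05 it was 3. Between 9 and 4700 kBq it was 1, and 5 with array weights, 2 at 0.05, and 0 in a fit of the 2 groups alone or in either tissue set, which hold fewer arrays. In the order fit it was 0, and 3 over 36 arrays with the group as a random block, a fit that counts rats of a group as separate. The share of all probes called is given here only for the main fit. A higher member count in another setting is therefore not shown to be particular to the members. Leaving out each rat gave 0 to 2, 0 to 2 and 0 calls. The calls against controls appeared without rat 2 of the controls (1), rat 4 of 1300 kBq (1), or rats 3 (2) or 4 (1) of 4700 kBq; between 9 and 4700 kBq there were 0 without rat 4 of 9 kBq and 2 without rat 1 of 4700 kBq. With the replicate block the 3 counts were 0, 1 and 0, and it changed no call; the rat numbers share only a number, as same-numbered rats had a median correlation of deviations between -0.04 and 0.03.

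Direction turned in the following. At 4700 kBq against controls *Bmal1* was 1.17 and its second probe (A_64_P117345) 0.83 in the samples with follicle genes below 0, with 1 array on each side; the second probe was -0.85 to 0.043 without single rats. *Cry1* was -0.064 at 760 kBq in the samples with follicle genes above 0 (-0.037 to 0.46 without single rats), and -0.10 at 4700 kBq with tissue covariates (-0.22 to 0.31). The brighter *Npas2* probe was -0.045 at 9 kBq with array weights (-0.062 to 0.76 without single rats), -0.047 with median centring and -0.27 with array weights at 340 kBq (-0.20 to 0.62), -0.18 at 760 kBq with array weights, and 0.24 with tissue covariates and 0.15 with follicle genes above 0 at 1300 kBq. Between 9 and 4700 kBq the dimmer *Npas2* probe (A_64_P024222) was 0.17 with the slide block and 0.33 with follicle genes above 0 (-0.41 to 0.11 without single rats). *Cry2* was -0.011 with quantile normalization, -0.0091 with the authors' table, -0.025 with median centring, -0.045 with array weights and -0.76 with follicle genes below 0 (-0.057 to 0.35). *Clock* was -0.32 and, for its second probe, -0.042 with follicle genes above 0. The slope of the dimmer *Npas2* probe was 0.014 with quantile normalization or the authors' table, 0.0061 with array weights, 0.0097 with the irradiated groups only, 0.016 with median centring, 0.015 with the rank of activity, 0.00081 with the slide block, 0.065 with follicle genes below 0 and -0.014 to 0.014 without single rats; that of *Cry2* was 0.042 with follicle genes below 0. No member spot was saturated, and each probe was well above background on 35 or 36 arrays.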
